A study of Mus musculus with 6 samples.

Results

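The clustered protocadherins are cadherin-like adhesion proteins encoded by the alpha, beta and gamma gene clusters, which lie in a row on mouse chromosome 18. All rows of the count matrix with a symbol of these clusters were taken, which gave 57 of 61880 rows: 13 alpha, 22 beta and 22 gamma. All rows that the authors' assembly placed in the same locus were also added together, and the 57 rows belonged to 22 of the 53912 loci. RNA was sequenced from mammary epithelial cells of the inguinal glands of female mice aged 6 to 8 weeks on the FVB/NJ background, with 3 *fat-1* and 3 WT samples, each a pool of the glands of several mice. The *fat-1* mice carry a roundworm desaturase transgene that makes *n*-3 PUFA from *n*-6 PUFA in all tissues, WT mice lack it, and both genotypes were kept for life on the same modified AIN93G diet with 10% fat by weight from safflower oil. The comparison asks whether RNA levels differ with lifelong *n*-3 PUFA exposure. RNA of the transgene was not analysed here, so the genotype labels were not checked against it and every direction rests on the labels.

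Each alpha or gamma isoform is made by splicing a variable first exon, with its own promoter, to constant exons shared by the whole cluster. The beta genes have no constant exon. The variable part forms the extracellular cadherin repeats that bind the same isoform on a neighboring cell, and the constant part gives alpha or gamma proteins a common cytoplasmic tail. In neurons, each cell chooses among the alternate promoters, with CTCF and cohesin looping an enhancer to the chosen promoter, and the resulting surface code serves self-recognition. The C-type isoforms (*Pcdhac1*, *Pcdhac2*, *Pcdhgc3*, *Pcdhgc4* and *Pcdhgc5*) lie at the end of the alpha and gamma clusters and are regulated apart from the alternate isoforms.

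In GRCm38, all 57 symbols were found in the GENCODE annotation. The alpha genes run from 36930184 to 37187661 on the plus strand of chromosome 18, the beta genes from 37264938 to 37524479 and the gamma genes from 37661793 to 37841873. Of 40755 exonic bases of the alpha cluster, 2864 belong to at least 2 genes, as do 3265 of 70891 in the gamma cluster and 455 of 92227 in the beta cluster. Reads from such bases cannot be assigned to a single isoform, and the split among isoforms was made by the authors' assembly and counting. The assembly placed every alpha and every gamma row in 1 locus of 41 rows. Of the 6 rows in it that carry no protocadherin symbol, 1 had no symbol at all, 4 had a predicted-gene symbol and 0 counts in every sample, and *Gm38182* had 16 counts in WT sample 3 and 0 elsewhere. The beta genes lie between both clusters but formed their own loci, each with a single row except for that of *Pcdhb21* and *Pcdhb22*, which overlap by 455 bases. The symbol *Pcdha11* is given to 2 gene identifiers in the annotation, so its row may hold both and it is given no level per length.

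The counts summed to between 204539059 and 232148824 per sample, and a count of 0 allows a level of up to 0.0129 to 0.0147 CPM (counts scaled to the same total in each sample) before TMM normalization, a limit that covers counting error only. CPM below are relative to each sample's TMM-normalized total. The labelled cell type was checked with marker lists counted over all rows of their loci. All 10 luminal markers were above 1 CPM in every sample, with a sum of 809.7 to 3299 CPM for *fat-1* and 860.1 to 2790.0 CPM for WT, and 6 of 8 basal markers were above 1 CPM in every sample (sums of 157 to 611 and 149.6 to 486 CPM). RNA of other cell types was also present. All 8 fibroblast markers were above 1 CPM in every sample (sums of 1603 to 6197 CPM for *fat-1* and 3416 to 5749.7 CPM for WT), as were 7 of 8 immune markers (1443 to 1934 and 1328 to 2011 CPM), all 6 endothelial markers (197 to 246 and 222 to 271 CPM) and 1 of 5 adipocyte markers (84.5 to 107 and 113 to 127 CPM). Of 10 Schwann cell and neuronal markers, 5 were above 1 CPM in every sample (203 to 258 and 211 to 287 CPM), while the neuronal *Rbfox3* had at most 0.04 CPM and *Snap25* at most 0.08 CPM. The adipocyte sum was nearly all *Fabp4*, with 83.2 to 106 CPM for *fat-1* and 112 to 126 CPM for WT, while *Adipoq*, *Plin1*, *Lep* and *Cidec* were each below 1 CPM in every sample and overlapped between the genotypes. Some marker loci also hold other genes, among them those of *Cd68*, *Pgr* and *Prlr*, so the sums include RNA of those genes. The *Cd68* locus, with 5 symbols, gave 668 to 860 CPM of the immune sum in each sample. The part of these markers in the results below was not tested. In such bulk RNA, fewer cells of a type and less RNA per cell cannot be told apart.

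Gamma rows held nearly all of the clustered protocadherin counts, and most of these were assigned to the row of a single C-type isoform. How the reads of the shared constant exons were divided among the gamma rows was not tested. The gamma rows held 92.4% ± 0.916 (SD, *n* = 3) of the CPM of all 57 rows for *fat-1* and 92.0% ± 0.889 for WT. The beta rows held 6.99% ± 0.814 and 7.46% ± 0.856, and the alpha rows 0.603% ± 0.109 and 0.505% ± 0.0345. *Pcdhgc3* alone held 63.9% ± 4.01 of the gamma CPM for *fat-1* and 64.4% ± 0.424 for WT. These shares differed between genotypes by no more than about the spread of the samples.

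**Figure D1:**
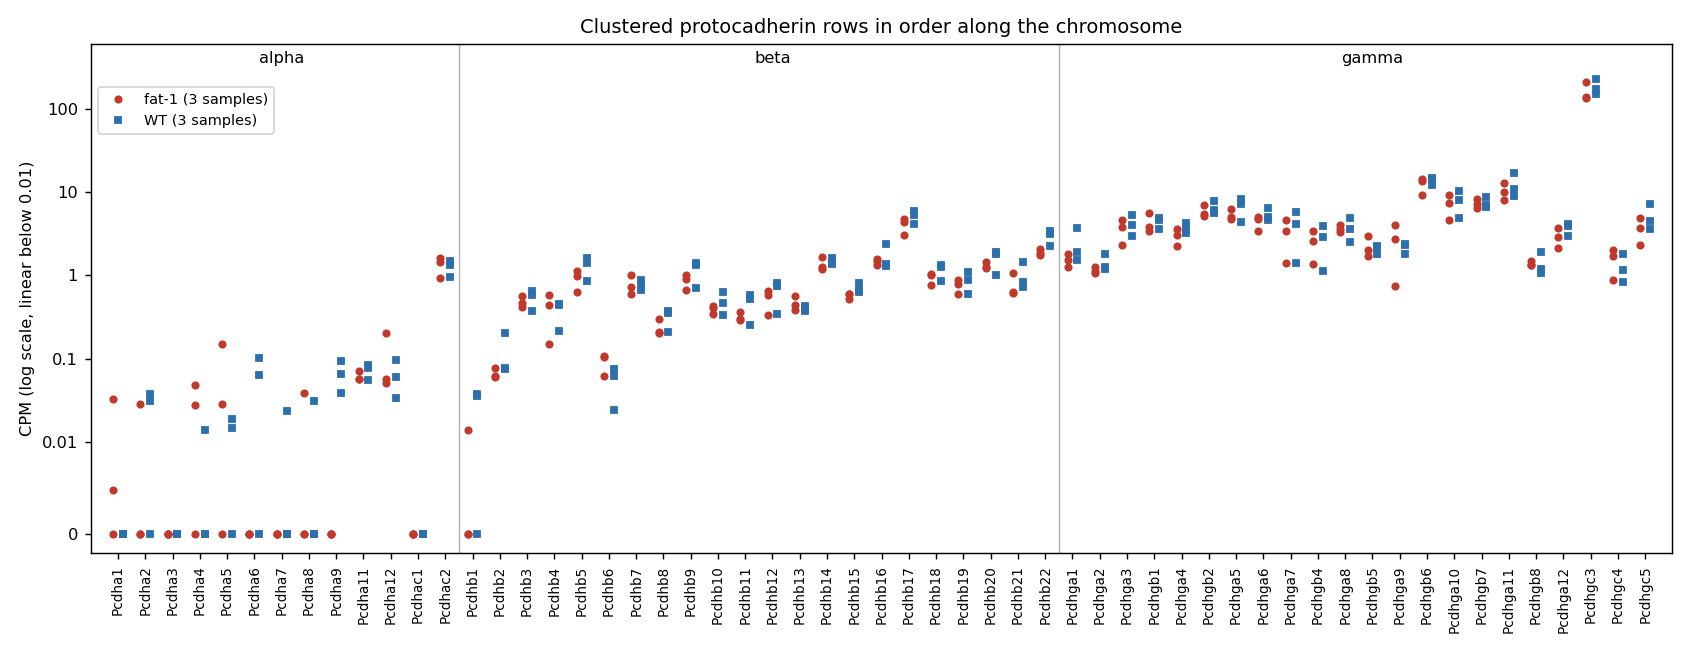
Level of each of the 57 rows in CPM (vertical axis, logarithmic above 0.01 and linear below), in the order of the genes along the chromosome, with 1 point for each of the 3 *fat-1* (red circles) and 3 WT (blue squares) samples. *Pcdhgc3* lies above 100 CPM, the other gamma rows between 0.743 and 16.9 CPM, and most alpha rows at or near 0.

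*Pcdhgc3* (chromosome 18, 37806364 to 37841873, plus strand) had 134, 137 and 212 CPM for *fat-1* (replicates 1, 2 and 3, an order kept throughout) and 171, 229 and 151 CPM for WT. The genotypes overlapped, with *fat-1* sample 3 above all but 1 of the WT samples. Its log2 fold change for *fat-1* relative to WT was −0.19 (standard error 0.25, 95% interval −0.80 to 0.42, adjusted *p* = 1.00 from edgeR's quasi-likelihood fit, Benjamini–Hochberg adjusted). Per kilobase of annotated exon, the mean level of *Pcdhgc3* over the 6 samples was 31.4 ± 7.28 CPM per kb (SD, *n* = 6). The next gamma isoform per length was *Pcdhgb6* with 2.79 ± 0.444, and the values of these isoforms did not overlap in any pair of samples. For scale, other genes are given in the same unit but as sums over all rows of their loci, unlike the single row of *Pcdhgc3*. The non-clustered protocadherins *Pcdh7* and *Pcdh1* had 6.08 ± 1.31 and 5.66 ± 1.26 CPM per kb. The epithelial cadherin *Cdh1* had 60.2 ± 34.3 CPM per kb.

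The other C-type gamma isoforms were far lower. *Pcdhgc4*, which lies next to *Pcdhgc3* and uses the same constant exons, had 1.99, 0.883 and 1.72 CPM for *fat-1* and 0.826, 1.81 and 1.15 CPM for WT. *Pcdhgc5*, the last variable exon of the cluster, had 2.29, 3.65 and 4.85 CPM for *fat-1* and 4.43, 7.13 and 3.60 CPM for WT. Both overlapped between genotypes. The log2 fold change was 0.28 (standard error 0.42) for *Pcdhgc4* and −0.49 (standard error 0.38) for *Pcdhgc5*, each with an adjusted *p* of 1.00 in edgeR.

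All 22 gamma rows had more than 3 counts in every sample and passed the filter on low counts. The 12 A-type rows summed to 48.5 ± 8.92 CPM (SD, *n* = 3) for *fat-1* and 56.8 ± 13.8 CPM for WT, and the 7 B-type rows to 35.8 ± 5.06 and 38.1 ± 5.23 CPM. Among these alternate isoforms, *Pcdhgb6* had 14.3, 9.28 and 13.7 CPM for *fat-1* and 14.6, 14.4 and 12.01 CPM for WT. *Pcdhga11* was next, with 9.94, 8.03 and 12.9 CPM and 8.90, 16.9 and 10.8 CPM. Both genes were lowest in *fat-1* sample 2. *Pcdhga10* had 4.66 to 9.13 CPM for *fat-1* and 4.88 to 10.4 CPM for WT, and *Pcdhgb7* had 6.38 to 8.21 and 6.70 to 8.80 CPM.

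Per length, *Pcdhgb6* (2.79 ± 0.444 CPM per kb) and *Pcdhga11* (2.36 ± 0.679) overlapped over the 6 samples, and *Pcdhga11* was the higher in WT sample 2 only. The ranges of *Pcdhgb7* (1.56 ± 0.198), *Pcdhga10* (1.56 ± 0.484), *Pcdhga5* (1.28 ± 0.324) and *Pcdhgb2* (1.26 ± 0.212) also overlapped, but *Pcdhgb7* was above *Pcdhgb2* within every sample. The lowest mean per length among the gamma rows was that of *Pcdhgc4*, with 0.249 ± 0.0904 CPM per kb. Its range overlapped that of *Pcdhga2* (0.273 ± 0.0569), and *Pcdhgc4* was the higher in *fat-1* samples 1 and 3. *Pcdhgb8*, which is annotated as a polymorphic pseudogene, had 1.06 to 1.90 CPM, within the range of the other gamma rows. Some alternate isoforms varied more between samples than the rest. *Pcdhga9* varied 5.42-fold between its highest and lowest sample, *Pcdhga7* 4.17-fold and *Pcdhgb4* 3.45-fold, against a median of 1.92-fold over the 22 gamma rows.

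The alpha rows were at or near 0 apart from *Pcdhac2*. This C-type isoform (37143503 to 37187657) had 302, 201 and 335 counts for *fat-1* and 281, 337 and 198 counts for WT, which was 1.33 ± 0.348 and 1.25 ± 0.269 CPM (SD, *n* = 3). It held 81.5% ± 7.65 of the alpha CPM for *fat-1* and 80.3% ± 2.72 for WT. The genotypes overlapped, and the log2 fold change was 0.08 (standard error 0.28, 95% interval −0.62 to 0.78). Per length its mean was 0.219 ± 0.0477 CPM per kb over the 6 samples, close to that of *Pcdhgc4*. The other C-type alpha isoform, *Pcdhac1*, and the alternate isoform *Pcdha3* had 0 counts in all 6 samples.

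The 11 rows of alternate alpha isoforms, *Pcdha1* to *Pcdha12*, together had 75, 68 and 38 counts for *fat-1* and 59, 99 and 47 counts for WT. Of all 13 alpha rows, 3 had more than 3 counts in every sample, and the same number passed the filter. Among the alternate isoforms, *Pcdha12* had 43, 11 and 12 counts for *fat-1* and 13, 22 and 7 for WT, and *Pcdha11* had between 12 and 19 counts in every sample. The rest came and went between samples. *Pcdha5* had 0, 32 and 6 counts for *fat-1* and 4, 0 and 3 for WT.

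*Pcdha9* (36997880 to 37187657) had 0 counts in every *fat-1* sample and 14, 21 and 8 counts for WT. Before TMM normalization, the WT mean of 0.0654 CPM was 4.60-fold the mean limit for 0 in *fat-1* (0.0142 CPM, 3 counts per library). That ratio leaves out the counting error and the spread of the WT counts, so it is not a lower bound. *Pcdha9* was the only member row with 0 counts throughout 1 genotype and more than 3 counts in every sample of the other. How many of all rows met this rule was not counted, so there is no background to set it against. Too few counts kept it from passing the filter, so it was not tested with the other rows. *Pcdha6*, another alternate isoform, had 0 counts in every *fat-1* sample too, and 0, 23 and 13 counts for WT. Without *Pcdha9*, the other alternate alpha rows had 75, 68 and 38 counts for *fat-1* and 45, 78 and 39 for WT, which overlapped. Conversely, *Pcdha1* had 1, 7 and 0 counts for *fat-1* and 0 in every WT sample. All these rows share their constant exons and 1 locus, and how reads were divided among them was not tested.

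The beta genes were low but nearly all detected. In total, 21 of 22 beta rows had more than 3 counts in every sample, and the exception was *Pcdhb1*, with 0, 3 and 0 counts for *fat-1* and 8, 8 and 0 for WT. The 22 rows summed to 19.3, 15.8 and 21.0 CPM for *fat-1* and 24.8, 27.1 and 17.3 CPM for WT. WT sample 3 lay below *fat-1* samples 1 and 3, so the genotypes overlapped. The means were 18.7 ± 2.63 and 23.1 ± 5.09 CPM (SD, *n* = 3).

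*Pcdhb17* was the leading beta gene, with 4.40, 3.04 and 4.79 CPM for *fat-1* and 5.99, 5.32 and 4.18 CPM for WT. It held 21.6% ± 2.07 of the beta CPM for *fat-1* and 22.7% ± 2.58 for WT. Per length it had 0.992 ± 0.218 CPM per kb over the 6 samples, and its lowest sample was above the highest of the next gene, *Pcdhb20* (0.407 ± 0.101). Below it, the ranges of *Pcdhb20*, *Pcdhb22* (0.365 ± 0.104), *Pcdhb9* (0.329 ± 0.101), *Pcdhb5* (0.312 ± 0.103) and *Pcdhb16* (0.299 ± 0.0789) overlapped. Within each of the 6 samples, however, *Pcdhb20* was above *Pcdhb9*, *Pcdhb5* and *Pcdhb16*. It was also above *Pcdhb22* in every sample but WT sample 3. *Pcdhb14* and *Pcdhb16* were among the 5 beta genes with the highest CPM, with 1.21 to 1.64 and 1.28 to 2.37 CPM over all samples. The lowest beta genes apart from *Pcdhb1* were *Pcdhb6*, with 0.0194 ± 0.00832 CPM per kb, and *Pcdhb2*, with 0.0329 ± 0.0195.

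**Figure D2:**
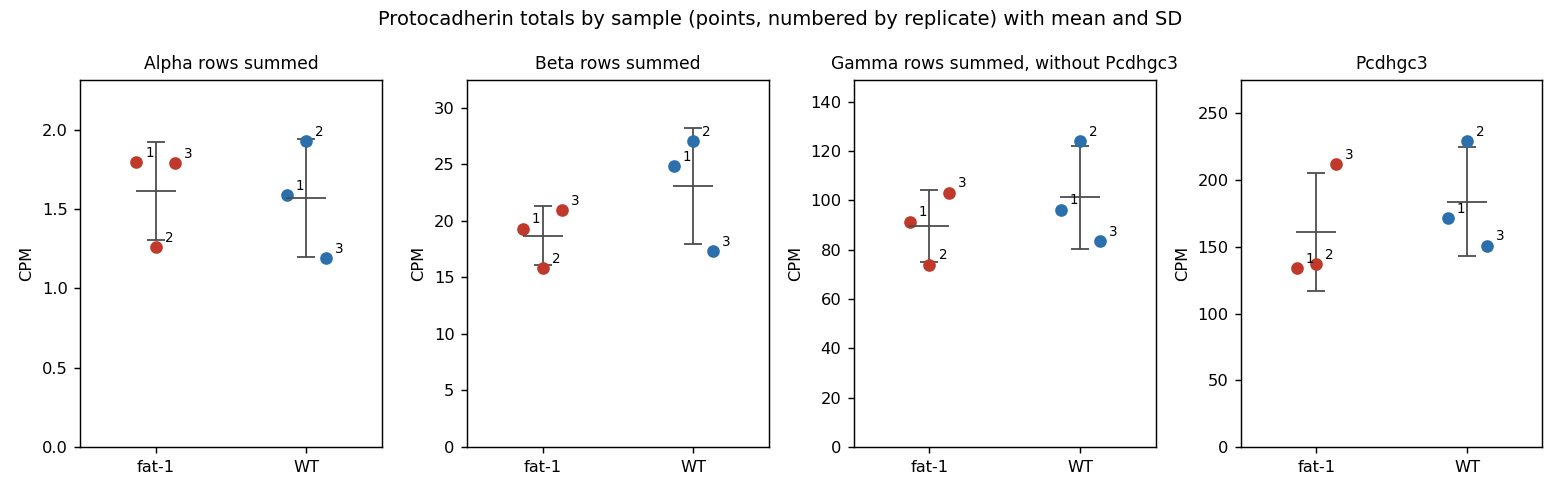
Summed CPM of the alpha rows, the beta rows and the gamma rows without *Pcdhgc3*, and the CPM of *Pcdhgc3*, in each of 3 *fat-1* and 3 WT samples (points numbered by replicate), with the mean and SD of each genotype. The genotypes overlap in all 4 panels, and WT sample 2 is the highest sample in each.

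Between the genotypes, 0 of 46 tested rows passed a false discovery rate of 5% with the quasi-likelihood or the exact test of edgeR or with DESeq2, and the first gave each row an adjusted *p* of 1.00. Nothing states that the pooled mice of the samples were wholly separate, and *p*-values measure only the spread between these samples. At an unadjusted *p* of at most 0.05, 1 of 46 rows (2.17%) passed the quasi-likelihood test, with the lower level in *fat-1*. Of all 30683 rows tested, 2.21% passed in either direction and 1.14% with the lower level in *fat-1*. DESeq2 also gave 1 row and the exact test 0, but what part of all rows passed these tests was not counted. The *fat-1* and WT values did not overlap in 2 of the 46 rows (4.35%), both lower in *fat-1*, against 5.26% of all tested rows in either direction and 2.70% in that direction. In either direction, both shares were near the background. The other 11 rows, 10 alpha rows and *Pcdhb1*, did not pass the filter.

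The direction of the differences was uneven but small. The log2 fold change, of any size, was below 0 in 36 of the 46 rows, against 48.8% of all tested rows, and its median was −0.21 against 0.005 for all tested rows. By cluster, it was below 0 in 17 of 21 beta rows (median −0.29), in 18 of 22 gamma rows (median −0.17) and in 1 of 3 alpha rows (median 0.08). The rows are not independent of each other, since WT sample 2 was the highest sample in 29 of the 46 rows and *fat-1* sample 2 the lowest in 21. The count below 0 was the same with DESeq2 size factors, and ranged from 28 to 41 as samples were dropped one at a time. The count of 28 was obtained without WT sample 2.

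**Figure D3:**
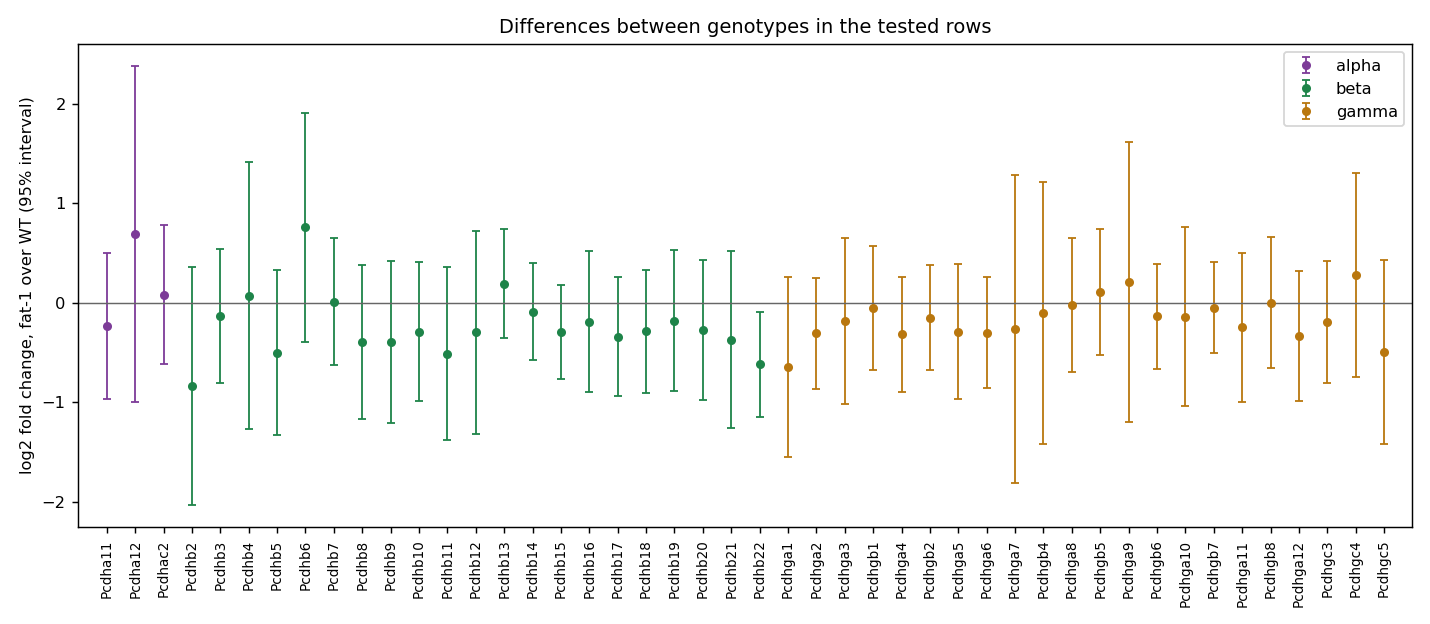
Log2 fold change of *fat-1* over WT for the 46 tested rows, with 95% intervals from edgeR's quasi-likelihood fit, in order along the chromosome and colored by cluster. All intervals but that of *Pcdhb22* include 0.

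*Pcdhb22* (37517871 to 37524479) was the row at the unadjusted threshold, with 1.87, 1.76 and 2.09 CPM for *fat-1* and 3.17, 3.37 and 2.23 CPM for WT. All *fat-1* samples were below all WT samples, although *fat-1* sample 3 and WT sample 3 were close. On the log2 scale the fold change was −0.62 (standard error 0.22, 95% interval −1.15 to −0.09, adjusted *p* = 1.00 in edgeR). Its unadjusted *p* was 0.0291 by the quasi-likelihood test, 0.103 by the exact test of edgeR, and between 0.0656 and 0.0911 by the former when *fat-1* sample 1 or 2 or WT sample 1 or 2 was dropped. *Pcdhb21*, which overlaps it, had 0.619, 0.636 and 1.06 CPM and 0.826, 1.43 and 0.733 CPM, and overlapped between genotypes. The sum of both rows was 2.47, 2.39 and 3.15 CPM for *fat-1* and 4.001, 4.79 and 2.97 CPM for WT. It overlapped, the log2 fold change was −0.55 ± 0.23 (standard error), and it had an unadjusted *p* of 0.0474 by the quasi-likelihood test and 0.0636 by the exact test of edgeR.

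*Pcdhb15* was the other row without overlap, with 0.519, 0.589 and 0.600 CPM for *fat-1* and 0.658, 0.801 and 0.631 CPM for WT. Its log2 fold change was −0.29 (standard error 0.19, 95% interval −0.76 to 0.18), and the gap between *fat-1* sample 3 and WT sample 3 was small beside the spread within each genotype.

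For the locus sums, 0 of 21 tested loci passed a false discovery rate of 5% with either edgeR test or DESeq2. At an unadjusted *p* of at most 0.05, the quasi-likelihood test gave 1 of 21 (4.76%), the locus of *Pcdhb21* and *Pcdhb22*, with the lower level in *fat-1*. Of all 24061 loci tested, 1.14% passed in either direction and 0.661% with the lower level in *fat-1*. The genotypes did not overlap in 1 of 21 loci (4.76%), that of *Pcdhb15*, which was lower in *fat-1*, against 4.15% of all tested loci in either direction and 2.36% in that direction. The locus of all alpha and gamma rows had 240, 222 and 336 CPM for *fat-1* and 278, 362 and 241 CPM for WT. These values overlapped, and the log2 fold change came to −0.14 (standard error 0.21, 95% interval −0.65 to 0.37, adjusted *p* = 1.00 in edgeR). Without WT sample 2 it was 0.03.

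Within that locus, the row without a symbol separated the genotypes. It had 2981, 2234 and 3858 counts for *fat-1* and 1897, 1630 and 1159 counts for WT, or 14.4 ± 4.04 and 7.23 ± 1.61 CPM (SD, *n* = 3). It held 5.36% ± 0.612 of the CPM of the locus for *fat-1* and 2.50% ± 0.616 for WT. All *fat-1* samples were above all WT samples, and the log2 difference came to 0.99 ± 0.28 (standard error), with an adjusted *p* of 1.00 in edgeR. The unadjusted *p* was 0.0126 by the quasi-likelihood test and 0.0175 by the exact test of edgeR. This row carries only the locus name of the assembly, and which exons it holds is not given in the matrix, so it cannot be assigned to the alpha or the gamma cluster. It was singled out after its values were seen.

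**Figure D4:**
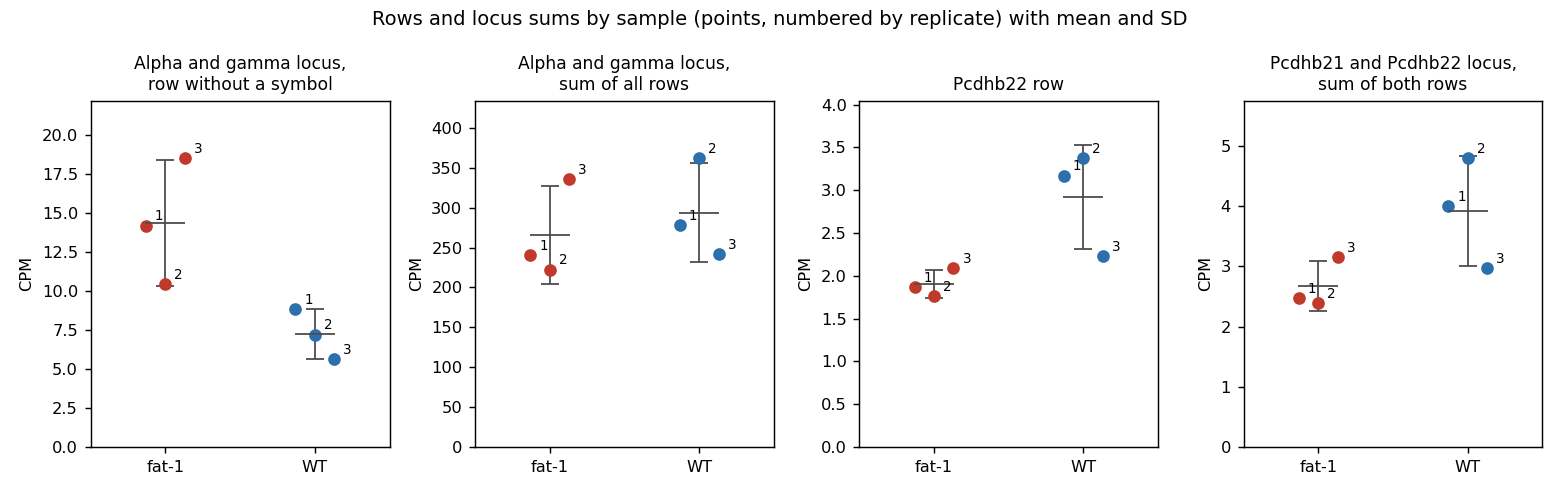
CPM of the row without a symbol in the alpha and gamma locus, of the sum of all rows of that locus, of the *Pcdhb22* row and of the sum of *Pcdhb21* and *Pcdhb22*, in 3 *fat-1* and 3 WT samples (points numbered by replicate), with mean and SD. The genotypes do not overlap in the panels of single rows and overlap in both sums.

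The order of the samples was also set beside that of the marker lists. Over the 6 samples, *Pcdhga7* ranked in the same order as the mean log2 level of the 10 luminal markers. It had 4.66, 1.40 and 3.44 CPM for *fat-1* and 5.83, 4.13 and 1.42 CPM for WT, while these 10 markers averaged 7.10, 5.38 and 6.39 for *fat-1* and 7.24, 6.59 and 5.53 for WT on the log2(CPM + 0.1) scale. Pearson's r was 0.984 (exact permutation *p* = 0.00139, adjusted *p* = 0.128 over 92 relations) and Spearman's rho was 1.00 (exact permutation *p* = 0.00278, adjusted *p* = 0.256), with r = 0.947 once the 2 samples farthest from the luminal median were dropped. *Pcdhgb6* followed the luminal markers with r = 0.869 (exact permutation *p* = 0.00417, adjusted *p* = 0.192) and rho = 0.943 (exact permutation *p* = 0.0167, adjusted *p* = 0.511), with r = 0.785 once the 2 farthest were dropped. The highest r with the 8 fibroblast markers was that of *Pcdhga12* with r = 0.922 (exact permutation *p* = 0.0167 and 0.426 adjusted) and rho = 0.714 (exact permutation *p* = 0.136 and 0.644 adjusted), and r stayed at 0.834 once the 2 farthest were dropped. Of the 92 relations, 0 had an adjusted *p* at or under 0.05 for r or rho. With 6 samples, however, the permutation *p*-values of *Pcdhga7* are the smallest that these tests can give. No relation could therefore pass on its own after adjustment, and the count of 0 decides nothing.

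Of the 46 rows, 7 (15.2%) had an r of at least 0.8 with the luminal markers and 4 (8.70%) with the fibroblast markers, against 12.9% and 8.02% of all tested rows, so the members were near the background for both lists. *Pcdhgc3* was highest in WT sample 2 and *fat-1* sample 3, the samples with the highest fibroblast marker sums (5749.7 and 6197 CPM), with r = 0.731 over the 6 samples (exact permutation *p* = 0.0778 and 0.488 adjusted), rho = 0.771 (exact permutation *p* = 0.103 and 0.644 adjusted) and r = 0.633 once the 2 farthest were dropped. The part of the cell types in the levels of the protocadherins was not tested.

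**Figure D5:**
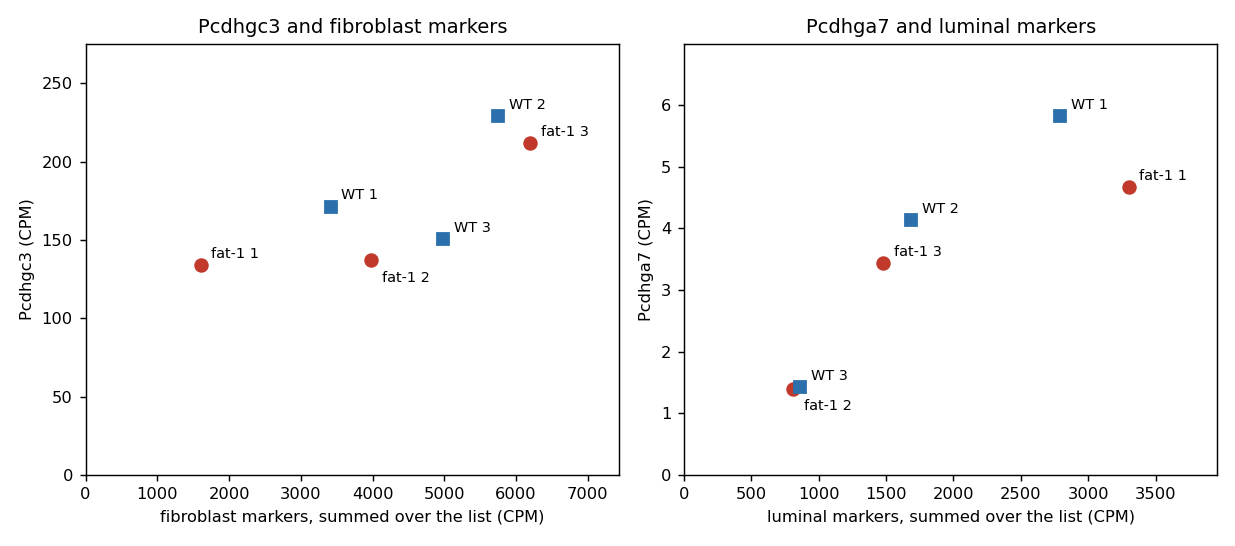
Left, *Pcdhgc3* against the summed fibroblast markers and right, *Pcdhga7* against the summed luminal markers, all in CPM, with 1 labelled point for each *fat-1* (red circles) and WT (blue squares) sample. The samples of both genotypes are mixed along both axes, and *Pcdhga7* is lowest in *fat-1* sample 2 and WT sample 3.

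Genes that act with the clustered protocadherins were examined as lists, with levels counted over all rows of the locus. Directions are those of the rows with the gene's symbol. Of the 72 rows of the 5 lists, 0 reached an unadjusted *p* of 0.05 in the quasi-likelihood test of edgeR, against 2.21% of all tested rows. DESeq2 and the exact test both gave *Hars* (below 0) and *Wasf2* (above 0) at that level, and each of these tests gave 0 after adjustment. The share of all rows at that level was not taken for these tests. In the quasi-likelihood fit, the log2 fold change of *Hars* was −1.29 by row and 0.007 by locus. That of *Wasf2* was 1.68 by row and 0.08 by locus. Both loci also hold another gene, and how reads were divided among their rows was not tested. Of the 12 non-clustered protocadherins, 9 had a log2 fold change below 0, with a median of −0.10. *Pcdh7* had 61.2 ± 16.9 CPM (SD, *n* = 3) for *fat-1* and 67.7 ± 12.8 CPM for WT, and *Pcdh1* had 47.4 ± 11.5 and 52.2 ± 12.7 CPM. *Pcdh12* and *Pcdh1* lie downstream of the gamma cluster on the same chromosome.

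Of the 15 genes of cluster architecture and silencing, which include CTCF, the cohesin subunits and their loaders and the repressors *Smchd1* and *Setdb1*, 4 had a log2 fold change below 0 and the median was 0.03. *Wapl*, which releases cohesin from DNA, had 249.9 ± 19.0 CPM for *fat-1* and 249.6 ± 12.1 CPM for WT, and *Nipbl*, the cohesin loader, had 225 ± 18.9 and 219 ± 11.8 CPM. *Smchd1* varied more between samples, with 216 ± 71.9 and 187 ± 82.3 CPM. In each of these genes the genotypes differed by less than the spread between samples.

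Of the 22 genes for processing and signalling partners, which cover the protease *Adam10*, gamma-secretase, the kinases *Ptk2*, *Ptk2b*, *Fyn* and *Ret* and the WAVE complex, 12 had a log2 fold change below 0, with a median of −0.005. *Nckap1*, a WAVE complex subunit, had 360.2 ± 31.9 and 378 ± 62.5 CPM. The locus of *Rhoa*, which also holds other genes, had 503 ± 53.6 and 504 ± 35.6 CPM. Of the 9 classical cadherins and catenins, 5 had a log2 fold change below 0 (median −0.03), and *Ctnnb1* (597 ± 136 and 598 ± 71.2 CPM, in a locus with another gene) and *Ctnna1* (354 ± 112 and 337 ± 57.7 CPM) had the highest levels. Of the 14 genes beside the clusters, 10 had a log2 fold change of the row below 0 (median −0.04), but over locus sums the median was 0.009. *Diaph1* and *Hars*, at −1.45 and −1.29 by row, were at 0.05 and 0.007 by locus. *Taf7*, which lies between the beta and gamma clusters, was below 0 on both measures. It had 37.9 to 43.0 CPM for *fat-1* and 40.3 to 44.1 CPM for WT. *Diaph1* and *Ik* were the highest of the 14 genes, with 208 ± 28.7 and 201 ± 3.33 CPM and with 142 ± 5.10 and 139 ± 8.01 CPM. Each of these differences in CPM was within the spread of the samples.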

How the data were processed

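RNA from 6 pooled samples (3 *fat-1*, 3 WT) was measured, and genotype and replicate number were taken from the sample labels. Per the labels and methods, reads were aligned to GRCm38 (HISAT2), transcripts were built and quantified (StringTie), and the authors deposited the whole-number counts of each row without normalization. Annotation, strand setting, tool versions and the step from coverage to counts are not given in the sources used here. The protocol names total RNA and an mRNA library.

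All 30683 rows kept by filterByExpr (minimum count 10) and, separately, 24061 locus sums went into edgeR 4.0.16 (R 4.3.3) for a quasi-likelihood test (newer fit, genotype as the only term, TMM normalization, Benjamini–Hochberg adjustment over all features, threshold 0.05). Standard errors were taken as the log2 fold change over the root of F, and intervals use the degrees of freedom of the fit. DESeq2 1.42.0 (Wald test), edgeR's exact test, the older fit, other size factors, no filter, a replicate block and leaving out each sample were the alternatives. Lengths are unions of annotated exons (GENCODE M21). Marker relations used log2(CPM + 0.1) and two-sided exact permutation tests of 6 samples. Scripts were tested on simulated data.

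The members and lists were chosen with earlier results of these data known. Named are the C-type isoforms, the 5 rows of each cluster with the highest CPM, rows without overlap, at the unadjusted threshold or at 0 throughout 1 genotype, loci with several member rows, and the 2 highest genes of each list with those at the unadjusted threshold. Other rows are named as ranges or examples, which were chosen after their values were seen. The planned alpha and gamma locus sums proved to be the same locus.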

Additional observations from a re-analysis of the deposited data

How the results depend on the processing

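Under every alternative run, 0 clustered protocadherin rows, 0 of their loci and 0 rows of the pathway lists passed a false discovery rate of 5%. At the unadjusted threshold, the 1 member row (*Pcdhb22*) became 0 with the exact test of edgeR and with the replicate block, 2 without a filter, and 0 to 5 as each sample was dropped (5 without WT sample 3, 2 without *fat-1* sample 3, 0 on dropping WT sample 2). The count without a filter includes *Pcdha9*, as do those on dropping any *fat-1* sample or WT sample 3, and that on dropping WT sample 1 is *Pcdha6* alone. Both rows are at 0 in every *fat-1* sample and passed the filter in the smaller fits only through their WT counts, so they had to differ and support nothing. The others on dropping WT sample 3 were *Pcdhb9*, *Pcdhb11*, *Pcdhb20* and *Pcdhb22*. The 1 member locus became 0 with the exact test and the replicate block, and 0 to 4 with a sample left out (4 without WT sample 3, and 0 on dropping replicate 1 or 2 of either genotype). The 0 pathway rows became 2 with DESeq2 and with the exact test, 1 (*Pcdh15*) with the replicate block, and 1 to 4 with a sample left out (4 without *fat-1* sample 1). The cause was not tested. The share of all rows or loci at that threshold was not taken for these alternatives, so their counts have no background to set them against. The locus sum of the alpha and gamma rows had a log2 fold change of −0.347 to 0.0342 with a sample left out, above 0 without WT sample 2. The sign also turned with a sample left out for *Pcdha12* (−0.23 to 1.12, without *fat-1* sample 1), *Pcdhac2* (−0.0790 to 0.279, without *fat-1* sample 3, and −0.0776 on dropping WT sample 3), *Pcdhga11* (−0.443 to 0.0539, without WT sample 2) and *Pcdhgb6* (−0.245 to 0.0354, without *fat-1* sample 2). The beta total had a log2 ratio of −0.30, and −0.47 to −0.17 with a sample left out. Same-numbered samples deviated from their genotype means with correlations of 0.266, −0.0335 and 0.0403 over all tested rows. Differently numbered samples had −0.253 to 0.237. Over locus sums, same-numbered samples had 0.515, −0.0961 and 0.0740, and differently numbered samples −0.459 to 0.477. Replicate 1 gave the highest value on both measures, but replicates 2 and 3 did not stand out. The replicate numbers were not taken as pairs, except in the replicate block. For the rows at 0, the depth allows levels of up to 0.0129 to 0.0147 CPM.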
